A study of Mus musculus with 8 samples.

Results

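Aqp4, Dag1, Dtna, Mlc1 and Hepacam, 5 of the 26711 features in the deposited matrix, encode parts of the protein assembly at the astrocyte endfoot, the process by which an astrocyte covers a blood vessel. They were taken by name. All 5 were in the matrix. The data were UMI counts of 102330 nuclei from primary visual cortex (V1), taken from mice on postnatal day 21, in 8 libraries of single-nucleus RNA-seq. In every group the mice were GR fl/fl, meaning that loxP sites flank part of Nr3c1, which encodes the glucocorticoid receptor. At birth they received an adeno-associated virus, AAV2/5, in which the astrocyte promoter GfaABC1D drove Cre with eGFP (GR-KO) or the inactive ΔCre with eGFP (GR-Con). Rearing was under normal light (NR) or dark (DR). Crossing genotype with rearing gave 4 groups of 2 libraries, each with 1 male and 1 female library. The methods gave 2 mice per condition, so p-values measure the spread between 2 libraries of different sex in a group. Cre came from a virus, and how many astrocytes of a library carried it is not known from these counts.

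Aqp4 encodes aquaporin-4, the main water channel of the brain, which sits densely in the endfoot membrane. Dag1 encodes dystroglycan, which spans that membrane and binds laminins and other matrix proteins of the vessel wall. Dtna encodes alpha-dystrobrevin, a partner of dystrophin and syntrophins on the inner side of the membrane, which together hold aquaporin-4 in place. Mlc1 and Hepacam encode a membrane protein and the cell adhesion molecule that escorts it to astrocyte junctions. Loss of either causes a leukodystrophy with swollen white matter. Glucocorticoids act through the receptor that Nr3c1 encodes, a ligand-driven transcription factor.

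On the mm10 (GRCm38) genome, GENCODE vM21 placed Hepacam at chr9:37367351-37386575 on the plus strand, Dag1 at chr9:108204634-108263958 on the minus strand and Mlc1 at chr15:88955884-88979007 on the minus strand. The RefSeq promoter windows of build GRCm38.p6, from 250 bases before to 50 bases after a gene start, held entries for Hepacam, Mlc1 and Dag1 (2 windows). They were searched on both strands for the receptor's half-site, AGAACA, because this is the receptor whose gene was targeted. Of all 32851 windows, 19.0% held it. It was found once in the Hepacam window and in none of the other 3 windows. The stretch around it, with the half-site in capitals, is at chr9:37367509-37367538 on the plus strand, with the half-site beginning at position -85 from the RefSeq start. GENCODE vM21 begins its transcript further upstream, and there the stretch lies in the UTR at the 5′ end, chr9:37367351-37367676.

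Hepacam: aagcgagaggagAGAACAaggccagcaaca

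The match is of letters alone. It describes the window and says nothing of binding of the receptor there.

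The libraries held 9517 to 15161 nuclei, of which 924 to 1794 were astrocytes, and 5462791 to 11585703 UMIs in astrocytes. All 10 astrocyte markers of the list had their highest level in the nuclei labelled astrocytes. Nr3c1, the targeted gene, was not lower with Cre: its level in astrocytes was 221 to 231 CPM (UMIs of a gene scaled to one fixed total of UMIs for every cell type and library) in NR GR-Con and 268 to 284 CPM in NR GR-KO. The 3′ assay counts a transcript whether or not the loxP-flanked part was removed, so this does not check the deletion. The methods state that DRAQ5-positive, GFP-negative nuclei were sorted, and the labels name DRAQ5 alone. Cre UMIs were found in astrocytes of all 4 GR-KO libraries, at 4.14 to 10.4 CPM, and in none of the 4 GR-Con libraries. Of the cell barcodes, 1220 occurred in more than 1 library.

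Aqp4, Mlc1 and Hepacam were concentrated in astrocytes, and Dtna was highest there, whereas Dag1 was spread over all cell types. Levels across cell types are described without a test, since the deposited cell types were made from the same genes. They are means over libraries with at least 10 nuclei of a type, and they are not compared between genes, because longer genes can give more nuclear UMIs. Astrocytes made up 9.27% of the nuclei and 3.36% of the UMIs. They held 82.2% of the Aqp4 UMIs, 80.3% of the Mlc1 UMIs, 64.8% of the Hepacam UMIs, 21.03% of the Dtna UMIs and 3.71% of the Dag1 UMIs.

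Aqp4 was at 148 ± 39.0 CPM (SD, n = 8) in astrocytes. The next types were VLMC (vascular leptomeningeal cells) at 14.0 ± 9.25 CPM (n = 7) and endothelial cells at 12.9 ± 7.34 CPM (n = 7), whose ranges overlapped each other but not that of astrocytes. Over all libraries, VLMC held 32 Aqp4 UMIs and endothelial cells 37. OPC (oligodendrocyte precursors) were at 8.46 ± 2.84 CPM and oligodendrocytes at 2.22 ± 0.79 CPM (n = 8). Every excitatory type lay between 0.59 and 0.96 CPM, in an order in which neighbours overlapped. The rare ChC (chandelier) interneurons showed 0 Aqp4 UMIs in 35 nuclei, which allows up to 5.0 CPM by the limit of 3 counts over the group, for counting error only. Mlc1 had the same leading order: 83.3 ± 5.79 CPM in astrocytes, then 10.6 ± 5.75 CPM in VLMC and 7.24 ± 3.26 CPM in endothelial cells. The last 2 rested on 27 and 21 UMIs, and their ranges overlapped each other but not that of astrocytes. Its level was 1.85 ± 0.84 CPM in OPC and 1.38 ± 0.56 CPM in oligodendrocytes.

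Hepacam was at 369 ± 57.6 CPM in astrocytes, and 2 other glial types followed. OPC were at 143 ± 11.8 CPM and oligodendrocytes at 105 ± 20.7 CPM (n = 8 each), with ranges that overlapped each other. Endothelial cells (28.3 ± 13.7 CPM) and VLMC (28.0 ± 16.8 CPM) came next, below the range of oligodendrocytes. Over all libraries, they held 93 and 67 Hepacam UMIs. The 8 excitatory types lay between 1.03 and 3.24 CPM. Hepacam was thus measured in all 3 macroglial types, and Aqp4 and Mlc1 mainly in 1 of them.

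Dtna was at 2419 ± 121 CPM in astrocytes and above 150 CPM in every type except microglia (34.8 ± 17.9 CPM, n = 5). L5NP neurons, the near-projecting cells of layer 5, came second at 687 ± 68.4 CPM, above L6CT neurons (layer 6 corticothalamic cells) at 459 ± 63.6 CPM with no overlap of ranges. Among excitatory types L4 neurons were lowest, at 170.4 ± 19.7 CPM. For Dag1 the order began with the vessel wall: 91.2 ± 36.5 CPM in smooth muscle cells and pericytes (n = 6), 79.3 ± 19.8 CPM in VLMC (n = 7) and 62.1 ± 9.35 CPM in endothelial cells (n = 7). Astrocytes followed at 58.0 ± 6.18 CPM and L2/3 neurons at 56.4 ± 2.44 CPM, and each of these ranges overlapped with the next. Oligodendrocytes were lowest, at 19.3 ± 3.26 CPM, with no overlap with microglia above them (33.0 ± 2.75 CPM).

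**Figure D1:**
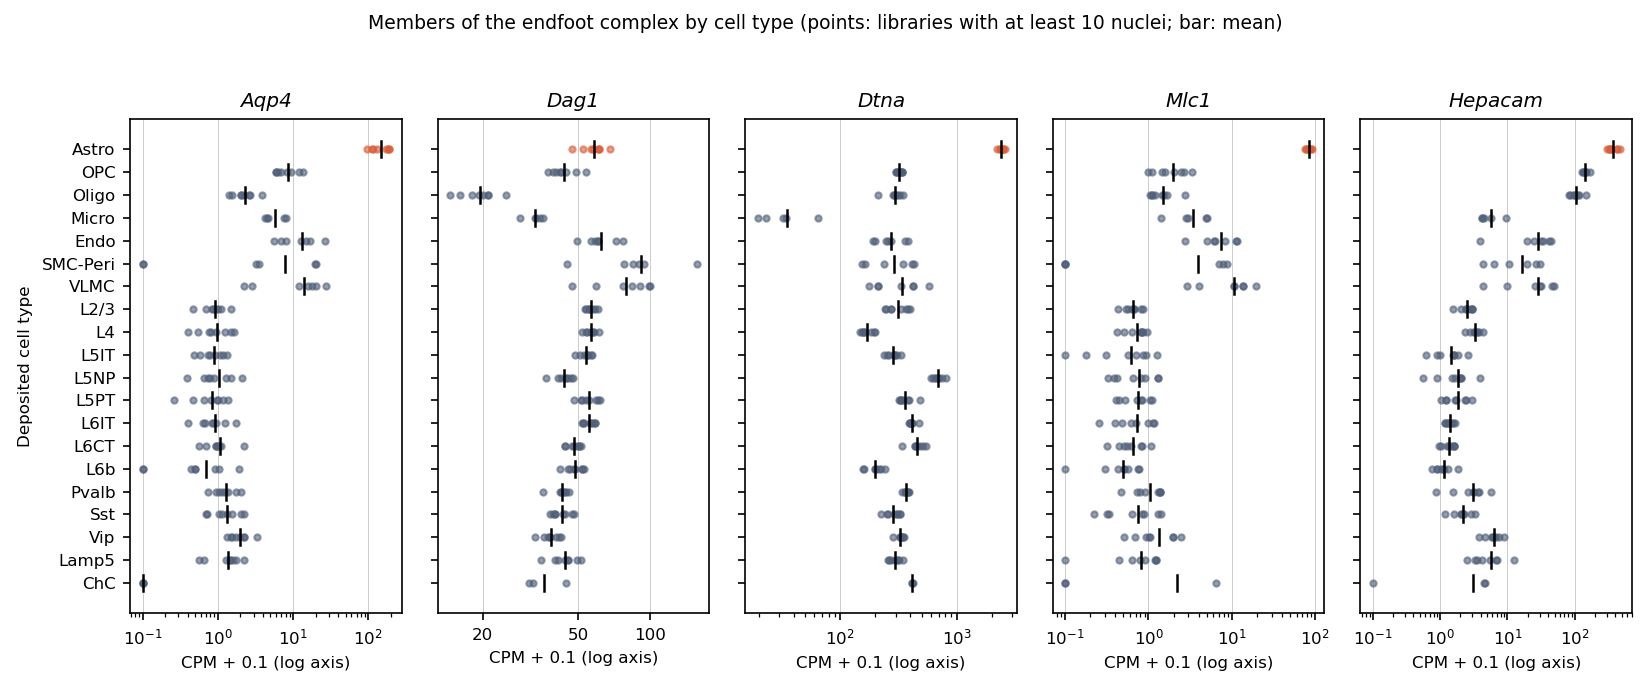
Level of each member in 20 deposited cell types, as CPM plus 0.1 on a log axis that differs between panels; points are libraries with at least 10 nuclei, vertical bars their means, and astrocytes are orange. Aqp4, Mlc1, Hepacam and Dtna were highest in astrocytes, and Dag1 in smooth muscle cells and pericytes at 91.2 CPM.

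The share of nuclei with a UMI followed the same lines. With each nucleus thinned to 2000 UMIs, which left out 56 of 9486 astrocytes, 513 of 3854 microglia and 17 of 69372 excitatory neurons, 98.5% ± 0.38 (SD, n = 8) of astrocyte nuclei had a Dtna UMI. The share was 50.8% ± 5.33 for Hepacam, 23.5% ± 5.12 for Aqp4, 15.3% ± 0.89 for Mlc1 and 10.7% ± 1.04 for Dag1. Without thinning, at a median of 5927 UMIs per nucleus over the libraries, they were 99.9% for Dtna, 86.5% for Hepacam, 52.1% for Aqp4, 41.7% for Mlc1 and 29.8% for Dag1. In excitatory neurons, whose median depth was 19812 UMIs, the thinned share was 0.181% for Aqp4, 0.123% for Mlc1 and 0.454% for Hepacam. Unthinned, the neurons' shares were 1.93%, 1.33% and 4.48%. Neurons are not known for these 3 genes, and their shares stand here as the level to set the other types beside. The source of these UMIs was not tested. For Hepacam the share was 23.9% ± 1.88 in OPC and 17.4% ± 2.98 in oligodendrocytes. In microglia, at a median depth of 2372 UMIs, it was 1.12% ± 0.55 (n = 5), also above the range of the neurons. Unthinned, microglia were at 1.61% for Hepacam, 1.73% for Aqp4 and 1.03% for Mlc1, each below the mean of the neurons. The order of microglia and neurons thus depended on thinning. The Dag1 share was 10.2% ± 0.37 in excitatory neurons, beside the 10.7% in astrocytes, and the Dtna share there was 43.1% ± 2.35. Oligodendrocytes had 39.9% for Dtna, 3.82% for Dag1, 0.47% for Aqp4 and 0.269% for Mlc1, and microglia 6.27%, 5.97%, 1.18% and 0.721%.

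The genotype comparison asked whether loss of the receptor in astrocytes changed the members. In NR astrocytes 2 of 5 members passed the test, in opposite directions: Aqp4 was higher and Hepacam lower in GR-KO. The test was edgeR's likelihood ratio test on UMIs summed per library, with Benjamini-Hochberg adjusted p-values over all genes tested. It called 7.11% of 14493 genes in this comparison, and the stricter quasi-likelihood F-test called 5.15%. All 5 members passed the filter on low counts in astrocytes in every comparison.

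Aqp4 was at 116 CPM in the male and 95.3 CPM in the female NR GR-Con library, and at 181 CPM and 174 CPM after Cre. Both GR-KO libraries lay above both GR-Con libraries. Groups of 2 libraries often lie apart by chance alone, and the share of all genes that did so is not given. Here and below, such separation is a description. The log2 fold change was 0.69 ± 0.15 (SE), with an adjusted p of 0.000176 by the likelihood ratio test and 0.00819 by the quasi-likelihood test. In DR, male before female, Aqp4 was at 131 and 111 CPM in GR-Con and at 192 and 187 CPM in GR-KO, again without overlap. That log2 fold change was 0.66 ± 0.20, and its adjusted p of 0.0871 by edgeR's likelihood ratio test missed the threshold of 0.05, with 0.736% of 14139 genes called. Of 9 alternatives to this fit, 2 called Aqp4. With all 8 libraries in the edgeR fit the same contrast gave an adjusted p of 0.0102, and with sex as a term 0.0340. The share of all genes that these 2 fits called is not given, so their calls are not read as a result about Aqp4. Over the 9 alternatives, by edgeR or DESeq2, the adjusted p ran up to 0.343. The quasi-likelihood test called 0.0% of genes in this comparison, and so not Aqp4. The difference between the genotype effects in NR and in DR was 0.01 ± 0.24 on the log2 scale. Over both rearings Aqp4, which lies on chromosome 18, was 1.62-fold higher in GR-KO: the 4 GR-KO libraries ran from 174 to 192 CPM and the 4 GR-Con libraries from 95.3 to 131 CPM. The log2 fold change was 0.67 ± 0.11, with adjusted p-values of 3.25e-07 by edgeR's likelihood ratio test and 0.00284 by its quasi-likelihood test. Aqp4 was the only member called there, where 4.79% of 14754 genes were called by the first test and 2.85% by the second.

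The share of astrocyte nuclei with an Aqp4 UMI, at 2000 UMIs per nucleus, was 18.01% ± 2.57 in NR GR-Con and 27.8% ± 1.24 in NR GR-KO (SD, n = 2). In DR it was 19.8% ± 1.64 in GR-Con and 28.3% ± 0.84 in GR-KO. The share is counted from the same UMIs as the level, so it is no separate evidence. It cannot tell more nuclei with Aqp4 RNA from more Aqp4 RNA per nucleus.

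Hepacam was at 464 CPM in the male and 418 CPM in the female NR GR-Con library, and at 327 CPM and 299.9 CPM in the NR GR-KO libraries. The groups did not overlap. The log2 fold change was -0.55 ± 0.15 (SE), with an adjusted p of 0.00711 by edgeR's likelihood ratio test and 0.0119 by the quasi-likelihood test. The thinned share of nuclei with a Hepacam UMI was 57.3% ± 2.87 in NR GR-Con and 45.2% ± 2.79 in NR GR-KO. In DR the GR-Con libraries were at 421 CPM (male) and 339 CPM (female), and the GR-KO libraries at 344 and 336 CPM. These groups overlapped, since the female GR-Con library was below the male GR-KO library. The log2 fold change in DR was -0.14 ± 0.21 (adjusted p = 0.9997 by edgeR). The difference of the genotype effects, -0.42 ± 0.25, did not pass the test (adjusted p = 0.9999), so the Hepacam effects in NR and in DR are not shown to differ. Over both rearings the log2 fold change was -0.35 ± 0.14, with an adjusted p of 0.133.

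Leaving out a library in NR leaves 1 library in its group, which is then assumed to vary like the 2 of the other group. Aqp4 had an adjusted p of 0.0711 by edgeR without the female NR GR-Con library, and up to 0.00864 without any other library. Hepacam kept its call only without the male NR GR-KO library (adjusted p = 0.0383). It had an adjusted p of 0.116 without the male and 0.0522 without the female NR GR-Con library, and 0.194 without the female NR GR-KO library.

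NR GR-KO astrocytes also differed in depth and in markers of other cells. Their median UMIs per nucleus were 8662 and 12124, against 4889 to 7199 in the other 6 libraries. The summed level of the 10 excitatory neuron markers was 1850 to 1920.1 CPM there and 936 to 1084 CPM in NR GR-Con, with 6 of 10 markers called higher (5 of 10 with edgeR's quasi-likelihood fit) and none at 0 in any group. The 5 inhibitory neuron markers summed to 123 to 153 CPM in NR GR-KO and 55.4 to 58.5 CPM in NR GR-Con, with 3 of 5 called higher (1 of 5 with the quasi-likelihood fit). Oligodendrocyte markers summed to 156 to 200.2 CPM and 118.0 to 138 CPM. The mean mitochondrial percent of astrocyte nuclei was 0.0223% in both NR GR-KO libraries and 0.0163% to 0.0191% in the other 6. In DR the excitatory sums were 1060.1 to 1406 CPM in GR-Con and 1311 to 1324 CPM in GR-KO. The summed level of the 10 astrocyte markers was 13894 to 14185 CPM in NR GR-KO and 16407 to 17142 CPM in NR GR-Con. Of these markers 1 was called higher and 2 lower in NR GR-KO (0 and 3 with the quasi-likelihood fit). Slc1a2 alone was at 8267 CPM in NR GR-KO and 10312 CPM in NR GR-Con, whereas Gja1, S1pr1 and Gfap had higher means in NR GR-KO. In DR the astrocyte marker sums were 14720 to 15842 CPM in GR-Con and 15059 to 16404 CPM in GR-KO. With genes enriched in excitatory neurons left out, the NR log2 fold changes were 0.70 for Aqp4 and -0.54 for Hepacam. With the tenth of astrocyte nuclei richest in neuron markers left out they were 0.72 and -0.55, and both genes were called in each case. The part of depth, of RNA quality and of the other markers in these results was not tested. In these summed counts, fewer cells of a subtype and less RNA per nucleus cannot be told apart.

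**Figure D2:**
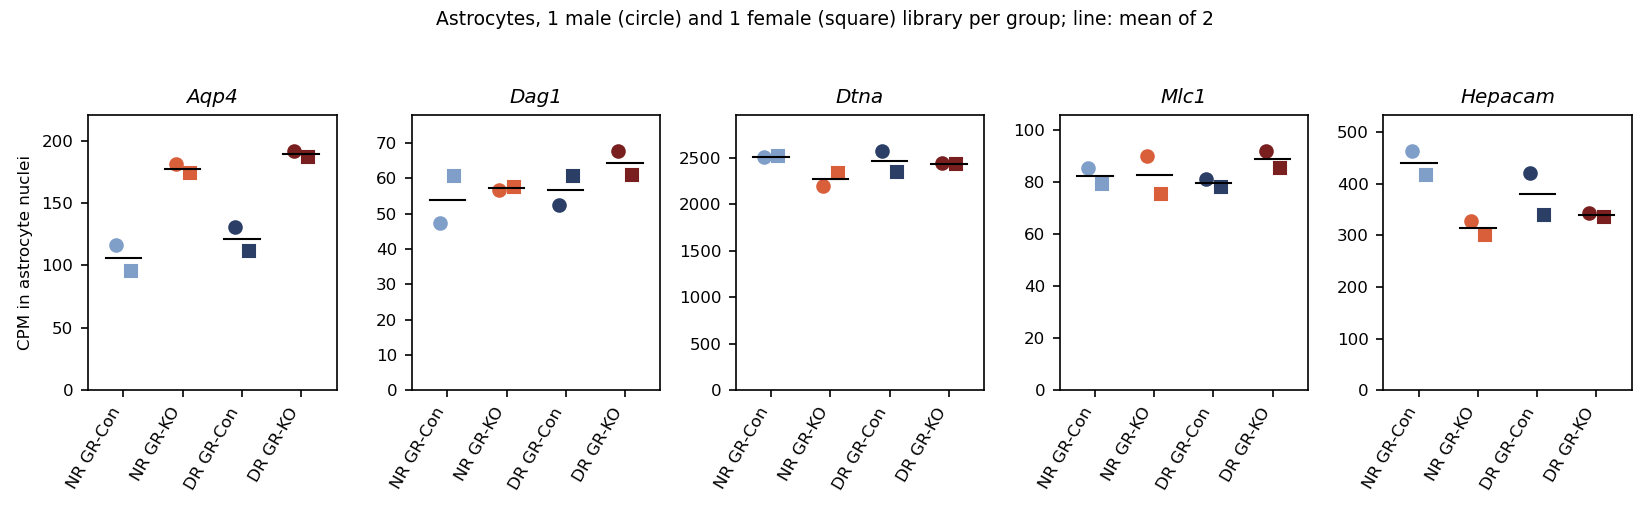
Level of each member in astrocytes in CPM on axes that start at 0, with 1 male (circle) and 1 female (square) library per group and a line at their mean. The 4 GR-KO libraries lie above the 4 GR-Con libraries for Aqp4, and both NR GR-KO libraries lie below both NR GR-Con libraries for Hepacam.

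Dag1, Dtna and Mlc1 passed no test between genotypes in astrocytes. Dag1 was at 47.3 and 60.6 CPM in NR GR-Con and at 56.8 and 57.5 CPM in NR GR-KO, male before female, which gave a log2 fold change of 0.02 ± 0.16 (SE). Under DR, Dag1 was at 52.3 and 60.8 CPM in GR-Con and at 67.7 and 60.9 CPM in GR-KO, a log2 fold change of 0.21 ± 0.20. The groups overlapped in NR, and in DR they were separated by a margin below the spread within either group.

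Mlc1 was at 85.2 and 79.3 CPM in NR GR-Con and at 89.9 and 75.4 CPM in NR GR-KO, a log2 fold change of -0.06 ± 0.15 with TMM scaling, beside means of 82.3 and 82.6 CPM that are scaled to total UMIs alone. Under DR, Mlc1 was at 81.0 and 78.2 CPM in GR-Con and at 91.9 and 85.4 CPM in GR-KO, a log2 fold change of 0.18 ± 0.19. The NR groups overlapped, and the DR groups did not. Hepacam's protein is the partner of the Mlc1 protein. Whether their RNA differences in NR, -0.55 and -0.06, differ from each other was not tested.

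Dtna was at 2509 and 2515 CPM in NR GR-Con and at 2195 and 2337 CPM in NR GR-KO. The NR groups did not overlap, and the log2 fold change was -0.21 ± 0.16, with an adjusted p of 0.626 by edgeR. Under DR, Dtna was at 2572 and 2350.3 CPM in GR-Con and at 2439 and 2432 CPM in GR-KO, with the GR-KO libraries between the GR-Con libraries. The coefficient of variation over the 8 libraries was 5.01% for Dtna, 6.96% for Mlc1, 10.7% for Dag1, 15.6% for Hepacam and 26.3% for Aqp4.

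The rearing comparison asked whether growth in the dark changed the members. No member passed the test in astrocytes. In GR-Con the log2 fold changes of DR against NR were 0.19 ± 0.22 for Aqp4, -0.22 ± 0.23 for Hepacam, 0.05 ± 0.24 for Dag1, -0.06 ± 0.20 for Mlc1 and -0.04 ± 0.21 for Dtna (SE). In this comparison 0.147% of 14252 genes were called by edgeR's likelihood ratio test. An unadjusted p under 0.05 was found for 623 of the genes and for 0 of 5 members. In GR-KO all 5 values were above 0, from 0.17 ± 0.12 for Aqp4 to 0.24 ± 0.13 for Dag1, beside 49.2% of all genes tested. The 5 values come from the same libraries, so their signs are not independent of each other. In this comparison 2.85% of 14490 genes were called. There 0 members had an unadjusted p under 0.05 by the likelihood ratio test, beside 1967 of the 14490 genes. By the quasi-likelihood test 3 members did (Dag1, Hepacam and Dtna), beside 2325 of the 14490 genes. At an adjusted p under 0.05 the quasi-likelihood test called 1.79% of genes. The lowest adjusted p among the members was 0.397 by the first and 0.244 by the second. Over both genotypes the values ran from -0.01 ± 0.14 for Hepacam to 0.18 ± 0.11 for Aqp4, with 0.935% of 14754 genes called. The interaction called 0.386% of genes and no member. The quasi-likelihood test called 0.0% of genes for the genotype in DR and for rearing in GR-Con, 0.0203% for rearing over both genotypes and 0.00678% for the interaction. For the comparisons where it called 0 genes, 874 of 14139 genes in DR and 647 of 14252 in GR-Con had an unadjusted p under 0.05 by this test. DESeq2 called 65 and 14 genes there. DESeq2 called the same numbers of members as the likelihood ratio test in all 7 comparisons. The comparisons within a genotype share libraries with those within a rearing, so they are not independent of each other.

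**Figure D3:**
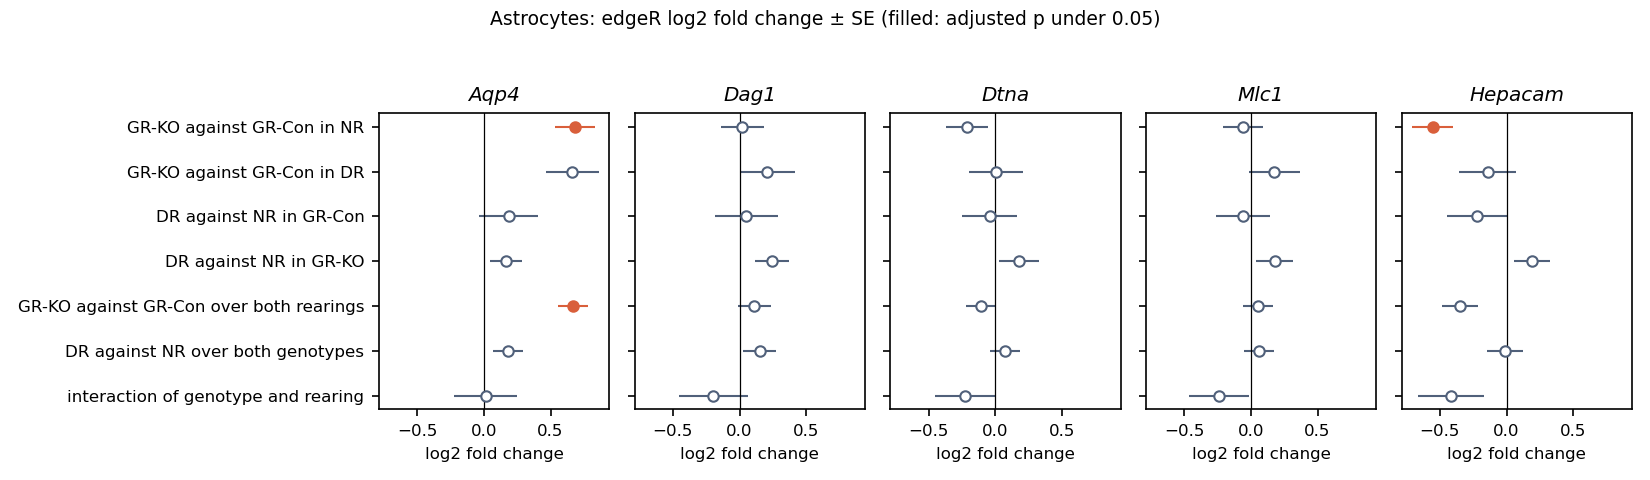
Log2 fold changes of the members in astrocytes with 1 SE to each side, in 7 comparisons (the interaction is the NR genotype difference minus that in DR); filled orange points have an adjusted p under 0.05. Aqp4 lies at 0.66 to 0.69 in each genotype comparison, and Hepacam at -0.55 in NR and -0.14 in DR.

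Nuclei with an eGFP UMI were compared with nuclei without one in the same library, to see whether members differed with the vector's own transcript. Of astrocytes, 4.18% to 11.98% per library (51 to 119 nuclei) had an eGFP UMI. For Aqp4 the log2 ratio of CPM plus 1 in eGFP-positive to eGFP-negative nuclei was 0.16 ± 0.22 (SD) in the 4 GR-KO libraries and 0.07 ± 0.27 in the 4 GR-Con libraries. The ratio was above 0 in 4 of 4 GR-KO and 2 of 4 GR-Con libraries, and with nuclei positive for eGFP, Cre or ΔCre in 2 of 4 and 2 of 4. The difference of 0.09 gave p = 0.629 in the exact two-sided permutation test of the library labels. For Hepacam the ratios were -0.05 ± 0.12 and -0.01 ± 0.10 (exact permutation p = 0.657). For Dtna they were -0.05 ± 0.10 and -0.10 ± 0.03 (exact permutation p = 0.343), for Mlc1 0.05 ± 0.07 and -0.02 ± 0.24 (exact permutation p = 0.600) and for Dag1 0.08 ± 0.21 and -0.11 ± 0.61 (exact permutation p = 0.743). Adjusted over the 5 members by the Benjamini-Hochberg method, every p was 0.743. The smallest p that 70 relabellings allow is 0.0286. The eGFP-positive nuclei of a library held 10 to 61 UMIs of Dag1 and 740 to 2338 UMIs of Dtna. In eGFP-negative nuclei alone, Aqp4 was at 168 to 191 CPM in the GR-KO and at 94.1 to 131 CPM in the GR-Con libraries. The level of eGFP was only 8.63 to 23.4 CPM in astrocytes, so a nucleus with the vector can lack an eGFP UMI. The eGFP-negative nuclei are thus not known to be free of the vector. For this reason the comparison cannot decide whether a member differs between nuclei with and without the vector.

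The partners of the members were described by fixed lists, with counts and no test of a list. Kcnj10, the inward rectifier potassium channel of the endfoot, was at 111 to 115 CPM in NR GR-Con and at 111 to 112 CPM in NR GR-KO, a log2 fold change of -0.09 ± 0.14 (SE). After DR, Kcnj10 was at 104 and 145 CPM in GR-Con and at 87.9 and 83.6 CPM in GR-KO, and -0.51 ± 0.23 did not pass the test (adjusted p = 0.5996 by edgeR). Dmd (dystrophin) was at 626 to 640.0 CPM in NR GR-Con and at 852 to 882 CPM in NR GR-KO, with 0.39 ± 0.15 and an adjusted p of 0.109 by edgeR's likelihood ratio test and 0.0311 by its quasi-likelihood test. Over both rearings its adjusted p was 0.0626.

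The share of all genes called was 7.11% in NR, 0.736% in DR and 4.79% over both rearings, as above. Of 13 genes of the dystrophin complex that were tested in NR, 3 rose and 1 fell in GR-KO, and the median log2 fold change was 0.09 beside 0.00 for all genes. Sntb1 (beta-1-syntrophin) rose from 34.1 ± 0.17 to 61.7 ± 3.91 CPM (SD, n = 2), Sntg1 (gamma-1-syntrophin) from 29.0 ± 1.66 to 56.3 ± 10.9 CPM and Sntb2 (beta-2-syntrophin) from 20.9 ± 2.29 to 31.7 ± 1.63 CPM. Sgcd (delta-sarcoglycan) fell from 123 ± 3.62 to 72.4 ± 11.2 CPM. The quasi-likelihood test called Dmd in place of Sntb2 among the 3 that rose. In DR, of 13 genes, Sgcd fell from 173 ± 71.4 to 56.0 ± 0.84 CPM and no other passed, and the quasi-likelihood test called none. There Sntg1 was at 48.3 ± 25.1 and 31.8 ± 5.06 CPM, GR-Con before GR-KO, and Sntb2 at 23.6 ± 4.40 and 22.0 ± 3.34 CPM, so the means of both lay the other way from NR, with overlapping groups. Over both rearings 1 of 14 genes rose (Sntb1) and 1 fell (Sgcd), by either test. Sntb1 was the one gene of this list that also differed with rearing over both genotypes: it was at 59.2 ± 4.76 CPM in DR GR-Con and 86.1 ± 2.18 CPM in DR GR-KO, and DR against NR gave 0.66 ± 0.11 on the log2 scale (edgeR, adjusted p = 4.31e-06). Sntg1, whose level in ChC was far above that in astrocytes, fell in DR against NR in GR-KO, by 0.75 on the log2 scale. Of all genes, the likelihood ratio test called 0.935% for rearing over both genotypes and 2.85% for rearing in GR-KO. In NR GR-KO 6 of 10 excitatory neuron markers were also higher, and in DR against NR in GR-KO 6 of 10 were lower (5 of 10 in both by the quasi-likelihood test). Sntb2 and Dmd were also higher in neurons than in astrocytes. Sntb2 was at 179 CPM in L5PT neurons (layer 5 pyramidal tract cells) and 24.6 CPM in astrocytes. Dmd was at 2797.5 CPM in L6CT neurons and 784 CPM in astrocytes. The part of neuron RNA in the Sntg1, Sntb2 and Dmd values was not tested. Sgcd was at 2230.8 CPM in OPC and 106 CPM in astrocytes. Sntb1 was at 387 CPM in smooth muscle cells and pericytes and 60.3 CPM in astrocytes. The part of RNA of these other types in the Sgcd and Sntb1 values was not tested either.

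Among the ligands of dystroglycan, 2 of 9 genes fell and none rose in NR GR-KO, with a median log2 fold change of 0.08. The quasi-likelihood test called Lama2 alone. Lama2, the laminin chain alpha-2, fell from 803 ± 36.3 to 593 ± 22.5 CPM. In DR the GR-Con level was 794 ± 161 CPM and the GR-KO level 691 ± 2.67 CPM, with overlapping groups, and over both rearings its log2 fold change of -0.35 ± 0.14 did not pass (adjusted p = 0.161 by edgeR). Lama5 also passed, at a low level of 9.68 ± 1.23 against 6.02 ± 1.13 CPM. It fell over both rearings too, by 0.81 on the log2 scale (adjusted p = 0.0090 by edgeR's likelihood ratio test), where the quasi-likelihood test called 0 of 9 ligands. None of 8 ligands passed in DR. Dystroglycan's binding depends on sugar chains built by a set of glycosyltransferases, and none of the 12 tested genes of that list passed in any of the 7 comparisons by edgeR's likelihood ratio test. Their median log2 fold change was 0.03 in NR and 0.05 in DR.

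Of 14 tested partners of the MLC1 and HepaCAM proteins, 4 fell and 2 rose in NR GR-KO, with a median log2 fold change of -0.01. By the quasi-likelihood test 4 fell and 0 rose. Gjb6 encodes connexin 30, a gap junction protein of astrocytes. It fell from 272 ± 36.2 to 123 ± 11.9 CPM, with a log2 fold change of -1.21 ± 0.16. Gja1, which encodes connexin 43, the other gap junction protein of astrocytes, was at 144 ± 3.63 and 149 ± 23.3 CPM. Lrrc8a and Lrrc8c, subunits of the volume-regulated anion channel, fell from 25.5 ± 6.22 to 12.8 ± 2.50 CPM and from 197 ± 99.5 to 59.997 ± 22.1 CPM. Atp1b2, a sodium pump subunit of astrocytes, fell from 209 ± 12.3 to 154 ± 5.55 CPM. The 2 genes that rose, Gpr37 and Cav1, were low, and both were higher in other cell types, in oligodendrocytes and endothelial cells. In DR, of 14 genes, Lrrc8c fell from 118 ± 6.28 to 67.0 ± 9.79 CPM and no other passed, with a median of -0.14, and the quasi-likelihood test called none. Over both rearings 4 of 14 fell (Gjb6, Lrrc8a, Lrrc8c and Atp1b2) and 1 rose (Gpr37), by either test. Of all genes, the likelihood ratio test called 4.79% and the quasi-likelihood test 2.85% there.

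Among the other aquaporins only Aqp9 and Aqp11 were high enough to be tested in astrocytes, and neither passed in any comparison by edgeR's likelihood ratio test. Aqp9, a channel for glycerol and other small solutes, was at 29.8 CPM over the 8 libraries, with its highest level in astrocytes. Aqp11 was at 7.52 CPM there and higher in endothelial cells.

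**Figure D4:**
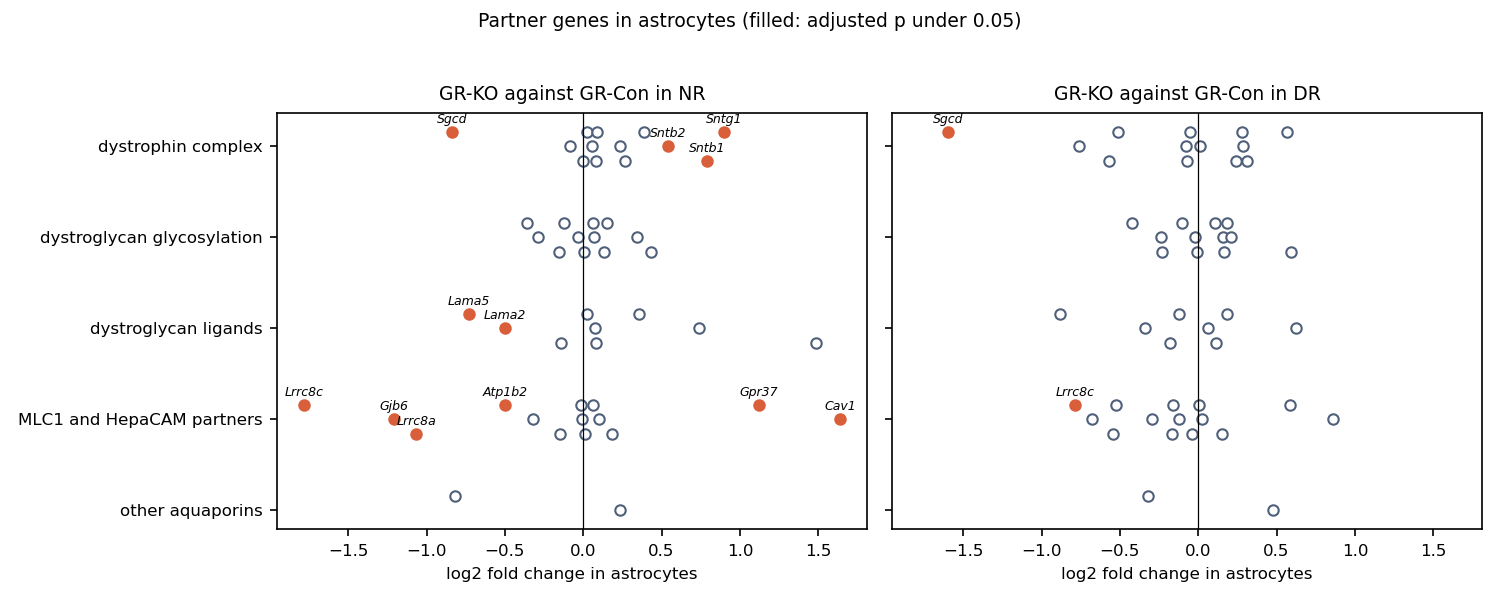
Log2 fold changes in astrocytes, GR-KO against GR-Con in NR (left) and in DR (right), of all tested genes of 5 partner lists; each point is a gene, offset vertically for legibility, and filled orange points with names have an adjusted p under 0.05. In NR 4 MLC1 and HepaCAM partners lie below 0 and 2 above among those called, and Sgcd and Lrrc8c are called in both rearings.

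Outside astrocytes the genotype called no member in the fits without a sex term. With sex as a term, which left 1 residual degree of freedom in NR, 5 of 60 pairs of a member and a cell type were called there, beside 0.992% of all gene and cell type pairs: Aqp4 was higher in L2/3 (log2 fold change 1.25 ± 0.36, adjusted p = 0.0318 by edgeR), L4 (1.22 ± 0.29, 0.00497) and L6CT neurons (1.23 ± 0.31, 0.0159), and Hepacam was lower in oligodendrocytes (-0.44 ± 0.14, 0.0486) and Pvalb interneurons (-1.18 ± 0.30, 0.0133). Without the sex term, the 60 pairs in NR came from 16 types and passed the filter on low counts, 0 were called by edgeR's likelihood ratio test and 13 had an unadjusted p under 0.05, with 0.37% of all gene and cell type pairs called. In DR, 0 of 53 pairs were called (2 at an unadjusted p under 0.05, 0.496% of all pairs called), and over both rearings 0 of 55 (12, and 0.0803%). For rearing in GR-KO 0 of 60 were called (8, and 3.71%), and for the interaction 0 of 55 (3, and 0.166%). The quasi-likelihood test also called none in these 5 comparisons. The shares of all pairs are at an adjusted p under 0.05. The share of all pairs at an unadjusted p under 0.05 is not given. The counts of members at that level are thus not read as results. For rearing 1 of 52 pairs was called in GR-Con, where 2.4% of all pairs were called, and 2 of 55 over both genotypes, where 5.55% were. Hepacam in oligodendrocytes was at 147 and 113 CPM in NR GR-Con and at 115 and 82.9 CPM in NR GR-KO. The groups overlapped. The log2 fold change was -0.44 ± 0.21, and its adjusted p by edgeR was 0.586. In OPC, Hepacam was at 143 and 165 CPM in NR GR-Con and at 128 and 132 CPM in NR GR-KO. Aqp4 in excitatory neurons, summed over the 8 types, was at 0.68 and 0.47 CPM in NR GR-Con and at 1.43 and 1.24 CPM in NR GR-KO. The DR values were 0.55 and 0.85 CPM in GR-Con and 0.92 and 0.76 CPM in GR-KO. The NR groups did not overlap, and the DR groups did. Aqp4 in the astrocytes of the same libraries differed in the same direction, and how much of the neurons' UMIs is free RNA was not tested.

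The clearest rearing difference of a member was that of Dtna in L2/3 neurons, the upper excitatory layer. Dtna was at 396 and 366 CPM in NR GR-Con and at 331 and 382 CPM in NR GR-KO, male before female. After dark rearing it was at 245 and 271 CPM in GR-Con and at 248 and 272 CPM in GR-KO. All 4 DR libraries lay below all 4 NR libraries. The log2 fold change over both genotypes was -0.51 ± 0.11 (SE), with adjusted p-values of 0.000105 by edgeR's likelihood ratio test and 0.00933 by the quasi-likelihood test. In L2/3 the first test called 15.9% of 18793 genes in this comparison, so Dtna was 1 of many. Within GR-Con it was -0.61 ± 0.15 (adjusted p = 0.00155 by edgeR, 7.45% of 18225 genes called), and within GR-KO -0.41 ± 0.18 (adjusted p = 0.160 by edgeR, and 0.00914 with sex as a term). The interaction was -0.20 ± 0.22 and did not pass.

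In the other types with a fit, Dtna changes with rearing over both genotypes ran from -0.19 ± 0.10 in L4 neurons to 0.31 ± 0.09 in Sst interneurons. None passed, and with sex as a term the Sst value did (adjusted p = 0.0236 by edgeR). The value in astrocytes was 0.07 ± 0.11. Whether the L2/3 value differs from those of other types was not tested. The other pair called was Mlc1 in L6IT neurons, with a log2 fold change of -1.32 ± 0.39, where 6.52% of 15957 genes were called. It rested on 3 to 23 UMIs per library and levels of 0.15 to 1.07 CPM, and it was not called by the quasi-likelihood test.

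**Figure D5:**
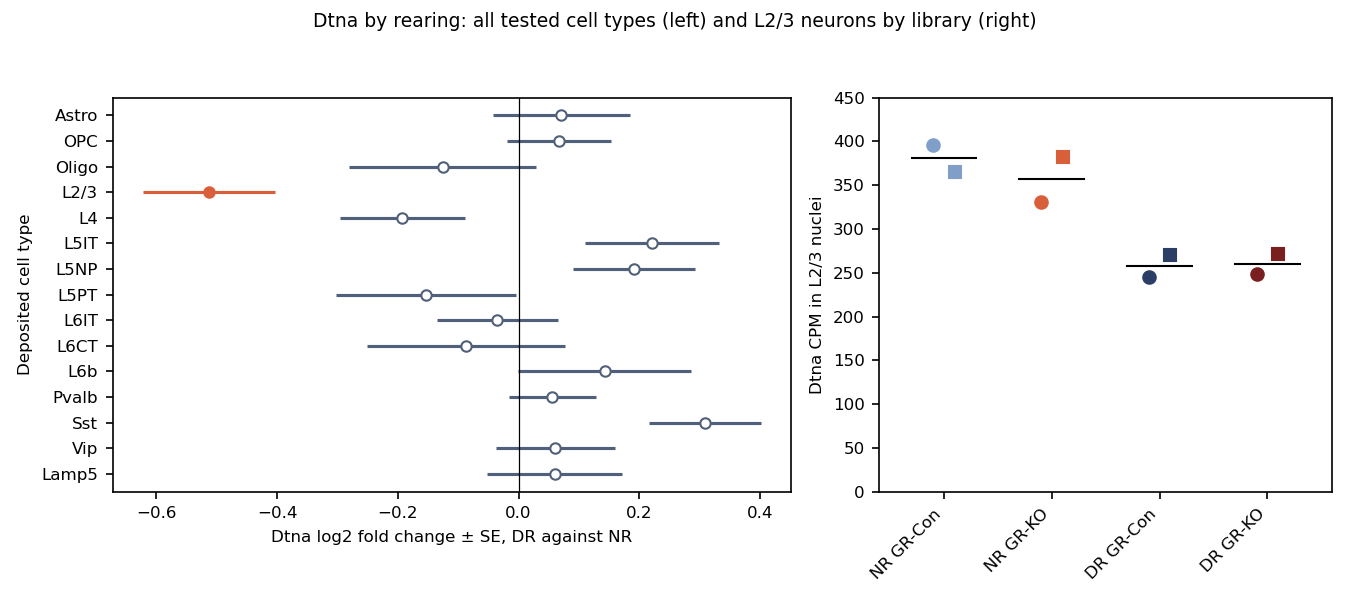
Dtna in DR against NR over both genotypes, as log2 fold change with 1 SE to each side in each cell type with a fit (left; filled orange has an adjusted p under 0.05), and its level in L2/3 neurons in CPM from 0 (right), with male (circle) and female (square) libraries and a line at their mean. L2/3 lies at -0.51, and its 4 DR libraries lie at 245 to 272 CPM below the 4 NR libraries at 331 to 396 CPM.

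The genes most like each member across the 20 cell types were ranked by Pearson's r of log2(mean CPM + 1) among 11033 genes with at least 20 CPM in some type. The points share their libraries, and the rankings are a description. For Aqp4 they were Cldn10, Sdc4, Tprkb, Gm10561 and Ccdc190 (r = 0.976 to 0.966), all highest in astrocytes. For Mlc1 they were Ppp1r3c, Gfap, Phkg1, Gpam and C030018K13Rik (r = 0.987 to 0.971). For Hepacam they were Asrgl1, Kcnj10, Cyp2j9, Arhgef19 and Kank1 (r = 0.972 to 0.955), of which Kank1 was highest in oligodendrocytes. Dtna was followed by Dtx1, Gnao1, Tmem56, Gpr19 and 4930488L21Rik at lower values (r = 0.879 to 0.817). Dag1 was followed by 0610043K17Rik, Tnks1bp1, Dtx3, Ctdspl and Arhgef17 (r = 0.928 to 0.833), all highest in smooth muscle cells and pericytes. Among the members themselves Aqp4 and Mlc1 were most alike (r = 0.940, rank 25 for Aqp4), followed by Aqp4 and Hepacam (r = 0.835) and by Mlc1 and Hepacam (r = 0.760). Dag1 and Hepacam were least alike, at r = -0.05.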

How the data were processed

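The authors made the libraries with 10x 3′ chemistry, and processed them with Cell Ranger 8.0.1 and Seurat 5.3.0 on mm10 with added vector sequences. Per the methods, nuclei of low gene count, doublets (DoubletFinder, per sample) and nuclei of very high count were removed before deposit. The deposited values are UMI counts per nucleus, whole and not normalised, and cell types were those of the deposited table. The percent of mitochondrial counts in the deposited table was read only as a check of nuclei. Columns of other samples in the tables numbered 0.

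UMIs were summed per library and cell type. In each type, libraries with at least 10 nuclei entered a fit with edgeR 4.0.16 in R 4.3.3 (filterByExpr, TMM, estimateDisp, glmLRT), with Benjamini-Hochberg adjustment over all genes tested in the type and a threshold of 0.05. Standard errors come from the log2 fold change and the root of its likelihood ratio, as their quotient. Alternatives were the quasi-likelihood test, DESeq2 1.42.0, RLE factors, no filter on low counts, sex as a term, all 8 libraries in the fit, 6582 neuron-enriched genes left out, nuclei rich in neuron markers left out, 924 nuclei per library and each library left out. The study's methods name the glmLRT test and the threshold. The fits were tested on simulated data, where the share of false calls exceeded the threshold, more so for the likelihood ratio test than for the quasi-likelihood test and more so with 2 libraries per arm than with 4, so the adjusted p-values of these fits, those in NR above all, understate the share of false calls. Shares were taken after thinning each nucleus to 2000 UMIs (1000 as the alternative). Nuclei with an eGFP UMI were compared by an exact permutation test over libraries with a pseudocount of 1 CPM (10 as the alternative). Python 3.11.15, numpy 2.4.6, pandas 2.3.3 and scipy 1.17.1 were used.

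Members and gene lists were chosen with earlier results of these data known. Partner genes are named by rule: up to 4 per direction and list among those called whose average log2 CPM reached 3, with Kcnj10 and Dmd always named. A further gene that the rule names is not reported here. Lama5 in NR, Gpr37, Cav1, Gja1, Aqp9 and Aqp11 are named outside this rule, after their values were seen. The limit for a count of 0 covers counting error only, whereas standard errors and SDs hold the spread between libraries.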

Additional observations from a re-analysis of the deposited data

Results flagged for a closer look

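Among the 10 sets of 4 libraries examined in the eGFP comparison, 1 library stood apart. In the NR GR-KO female library the log2 ratio of Aqp4 in eGFP-positive to eGFP-negative astrocytes was 0.478, from 78 and 902 nuclei, and the other 3 GR-KO libraries lay between 0.02 and 0.10. Its gap to the nearest library was 0.83 of the whole range, just past Dixon's critical value for 4 values. Chance alone marks about 1 in 20 such sets.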

How the results depend on the processing

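No paired analysis was possible because the library names carry no replicate number. They carry sex, with 1 male and 1 female library per group, and sex as a term was the alternative. With sex as a term and with all 8 libraries in the fit, 1 member (Aqp4) was called for the genotype in DR, where 0 were in the report. The share of all genes called is not given for these astrocyte fits, or for those below that left out a library. The counts are thus not read as results about the members. Of the pairs of a member and a cell type over the 7 comparisons, 10 were called with sex as a term in place of 3, and all gene and cell type pairs were called more often too, 0.992% in place of 0.37% for the genotype in NR and 6.85% in place of 5.55% for rearing over both genotypes. The 10 were the 3, Aqp4 in L2/3, L4 and L6CT and Hepacam in oligodendrocytes and Pvalb for the genotype in NR, and Dtna for rearing in L2/3 (within GR-KO) and Sst (over both genotypes). Leaving out 1 library at a time, 0 to 2 members were called in NR, 0 to 1 in DR and 1 to 2 over both rearings, where Hepacam was called without the female DR GR-Con library (adjusted p = 9.83e-04 by edgeR). For the genotype in DR, the log2 fold change of Aqp4 ran from 0.53 to 0.82 over the 4 fits that each left out 1 library. Within a rearing such a fit has 1 library in the group that lost one, assumed to vary like the 2 of the other group. Its p-values rest on the spread between those 2 and the dispersion shared across genes.

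Uncalled fold changes that turned in sign did so only when a library was left out. On the log2 scale the ranges were -0.16 to 0.22 for Dag1 and -0.182 to 0.0431 for Mlc1 (genotype in NR), -0.0791 to 0.103 for Dtna and -0.311 to 0.0554 for Hepacam (genotype in DR), -0.14 to 0.26 for Dag1 and -0.132 to 0.0423 for Dtna (rearing in GR-Con), -0.0050 to 0.11 for Mlc1 and -0.0762 to 0.0970 for Hepacam (rearing over both genotypes), and -0.13 to 0.15 for Aqp4 and -0.377 to 0.0102 for Dag1 (interaction). The cause was not tested.

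The share of astrocyte nuclei with a UMI moved with depth by construction. Thinned to 1000 UMIs it was 13.2% for Aqp4, 5.62% for Dag1, 89.6% for Dtna, 30.4% for Hepacam and 8.03% for Mlc1, and unthinned 52.1%, 29.8%, 99.9%, 86.5% and 41.7%. Of the other values recomputed per member without leaving out a library, 298 kept direction and side of the threshold and 2 passed it. With 2 libraries per group, the standard errors of 0.11 to 0.26 set the size of difference these data can show.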

Other observations

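The ratio of Aqp4 to Hepacam UMIs within astrocytes was looked at after the values of both genes had been seen, and it was not tested. It was 0.250 (male) and 0.228 (female) in NR GR-Con and 0.555 and 0.579 in NR GR-KO. In DR it was 0.310 and 0.328 in GR-Con and 0.558 and 0.556 in GR-KO. The ratio does not depend on library size, and the 4 GR-KO libraries lay above the 4 GR-Con libraries.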
